A study of Mus musculus with 7 samples.

Results

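The collagen genes are the 44 genes of mouse stomach arrays whose symbol is Col, a type number, a and a chain number, taken from probe sets that the platform annotation gives to 1 gene, out of 22180 genes measured that way. They were split into 11 fibrillar collagens, 8 basement membrane collagens (type IV, Col15a1 and Col18a1) and 25 other collagens, and 47 probe sets measured them, with the brighter one used for the 3 genes that had a pair. All mice carried the Atp4b-DTR transgene, a diphtheria toxin receptor under a parietal cell promoter, and were 8 to 12 weeks old. The 6 toxin arrays came from gastric corpus of mice given 225 ng diphtheria toxin intraperitoneally on each of 3 days and killed 24 h (1 array), 36 h (1 array), 48 h (2 arrays) or 72 h (2 arrays) after the last dose. The single control array came from mice or a mouse given saline, the labels not saying how many animals stand behind an array. Littermates served as controls only where the breeding allowed it. The corpus was taken whole, so fewer cells of a type and less RNA per cell cannot be told apart in any value below.

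Collagens are proteins in which 3 alpha chains wind into a helix, most of them secreted and some, such as Col23a1, held in the cell membrane. Fibrillar collagens (types I, II, III, V, XI, XXIV and XXVII) build the fibres of the lamina propria and submucosa, type IV collagen builds the sheet-like network under epithelium, vessels and smooth muscle, and types XV and XVIII link such basement membranes to the tissue beneath. Fibroblasts make most fibrillar collagen, and endothelial, mesenchymal and epithelial cells all contribute basement membrane chains.

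The arrays differed in ways beyond the treatment. Xist, the X-inactivation RNA, read 8.13 on the control array and 9.17 at 24 h, and 2.70 to 3.27 on the other arrays, while the Y-linked Eif2s3y read 3.81 on the control array and 3.40 at 24 h and 7.79 to 8.39 on the others. Any comparison of 36 h, 48 h or 72 h with the control therefore also compares these patterns, and time and sex pattern cannot be told apart there. The same holds for any step from 24 h to a later time. It also holds for the slopes over the toxin arrays, among which the 24 h array alone had the control's pattern. Krt4, a keratin of the squamous forestomach, differed from the control by 0.72 on the first 72 h array and by -3.67 on the second. Of 9 measured squamous forestomach markers, 7 lay below the control on the first 48 h array, down to -3.58, and 8 above it on the second. At 72 h all 9 lay above it on the first array and 7 below it on the second, so both pairs differed within themselves in these markers. The p-values between groups reflect only the gaps within the 48 h and 72 h pairs, which the labels call independent without naming separate animals, and may be technical, and the control's own spread was assumed to match them. The p-values of slopes leave out the control and also count how far the toxin arrays lay from a line.

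Over the 72 h the collagens did not differ from the control as a block. Under the deposited scaling all 6 toxin arrays lay above the control in 14 collagen genes (31.8%), against 20.2% of all genes. Col6a5, Col18a1, Col4a1, Col4a2, Col1a1 and Col3a1 were among them. Col4a3, like 22.6% of all genes, lay below the control throughout. Col4a1 and Col4a2 were highest at 72 h, and the abundant type I and type III chains were highest on 1 of the 2 arrays at 72 h. None of the 44 genes, and 0 of all 22180 genes (0.0%), passed a Benjamini-Hochberg adjusted p of 0.05 in limma for 48 h against control, 72 h against control, 72 h against 48 h, or the slope over the toxin arrays. At an unadjusted p under 0.05 the same fits held 4375, 3978, 1569 and 1929 genes. Values below are log2 signal, on which a difference of 1 is 2-fold, with the SE of the fit after the ± sign. Levels of different probe sets are not compared.

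**Figure D1:**
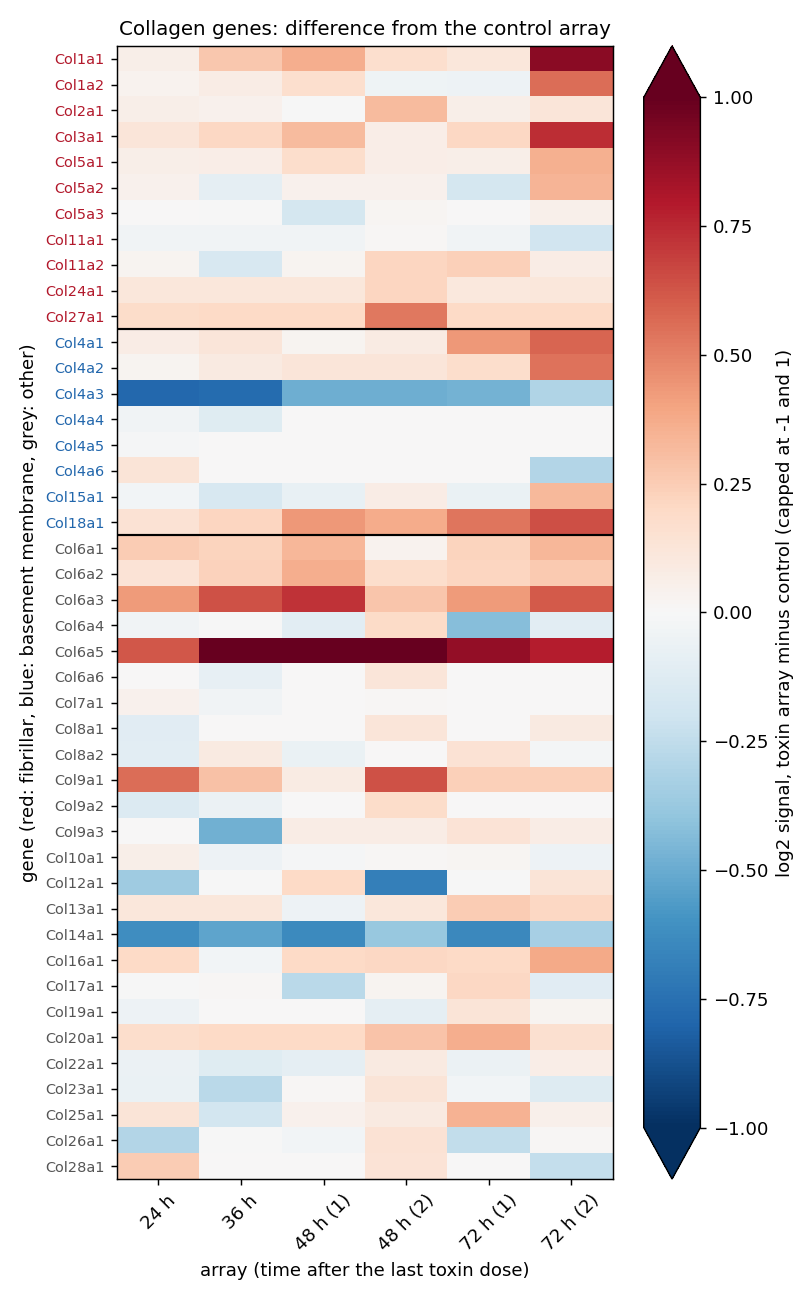
Each row is 1 of the 44 collagen genes and each column 1 toxin array, and the colour is log2 signal minus the control array, capped at -1 and 1. Red gene names are fibrillar, blue basement membrane and grey other collagens. Col6a5 is red on every array, Col4a3 and Col14a1 are blue on every array, and most rows are pale.

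Among the basement membrane collagens, the main type IV chains Col4a1 and Col4a2 were close to the control through 48 h and higher at 72 h. For Col4a1 the control array read 6.34, the 24 h array 6.41, the 36 h array 6.46, the 48 h arrays 6.36 and 6.42, and the 72 h arrays 6.77 and 6.93. Both 72 h arrays stood above every other array, by more than the gap of 0.15 between them. The difference was 0.51 ± 0.09 for 72 h against control (1.42-fold, adjusted p = 0.168) and 0.46 ± 0.08 for 72 h against 48 h (adjusted p = 0.705). For Col4a2, its partner in the common type IV helix, the control array read 6.25, the 24 h array 6.27, the 36 h array 6.34, both 48 h arrays 6.37, and the 72 h arrays 6.42 and 6.79. Both 72 h arrays were again the highest, but the gap of 0.37 between the 72 h arrays was larger than the difference of 0.24 ± 0.15 between 72 h and 48 h. Against control the 72 h difference of Col4a2 was 0.36 ± 0.19 (adjusted p = 0.456).

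Col4a1 and Col4a2 lie head to head on chromosome 8 and are read in opposite directions from a shared control region. Their annotated starts in RefSeq (GRCm38.p6) are 21 bases apart, each inside the other gene, so the annotated genes overlap at their 5′ ends. The windows of 250 bases before to 50 bases after each start overlap by 78 bases. They are shown because both genes had their highest values on the 72 h arrays. The Col4a1 window is chr8:11312777-11313076 on the minus strand (74.0% G and C) and the Col4a2 window is chr8:11312555-11312854 on the plus strand (73.7% G and C). Each is printed 5′ to 3′ on its own strand, and capitals mark CCAAT boxes (CCAAT or its reverse ATTGG) and GC boxes (GGGCGG or its reverse CCGCCC).
Col4a1: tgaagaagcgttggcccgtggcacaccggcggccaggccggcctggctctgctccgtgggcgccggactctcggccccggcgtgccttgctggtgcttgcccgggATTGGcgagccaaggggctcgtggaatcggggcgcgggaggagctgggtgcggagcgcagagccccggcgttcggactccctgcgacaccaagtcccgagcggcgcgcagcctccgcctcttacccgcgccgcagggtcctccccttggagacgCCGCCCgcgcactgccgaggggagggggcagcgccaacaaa
Col4a2: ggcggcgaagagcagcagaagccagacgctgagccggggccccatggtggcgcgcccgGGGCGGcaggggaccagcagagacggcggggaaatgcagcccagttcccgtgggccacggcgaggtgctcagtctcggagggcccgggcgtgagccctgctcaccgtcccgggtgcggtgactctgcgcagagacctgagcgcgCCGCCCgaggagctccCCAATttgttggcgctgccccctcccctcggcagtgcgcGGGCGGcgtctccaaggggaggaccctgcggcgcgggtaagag
The Col4a1 window held 1 CCAAT box and 1 GC box, and the Col4a2 window held 1 CCAAT box and 3 GC boxes. The GC box of Col4a1 lies where the windows overlap and is the same stretch of DNA as the last GC box of Col4a2. Neither held the TATA box letters TATAAA on either strand, and 0 bases in either window belonged to more than 1 motif. Of all 32851 promoter windows of this length, 37.4% held CCAAT, 35.7% held the GC box and 13.6% held TATAAA. RefSeq windows were found for 35 of the 44 collagen genes, 38 windows in all, and of these 34.2%, 60.5% and 13.2% held the same 3 motifs. A match is a run of letters and not a measured binding site.

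Col18a1, whose C-terminal end is released as endostatin, had values in the order of time from control to 72 h. For Col18a1 the control array read 5.18, the 24 h array 5.33, the 36 h array 5.39, the 48 h arrays 5.62 and 5.55, and the 72 h arrays 5.71 and 5.82. Each time point stood above the one before it and no pair of time points overlapped. The difference from control was 0.40 ± 0.08 at 48 h (1.32-fold, adjusted p = 0.158) and 0.59 ± 0.08 at 72 h (1.5-fold, adjusted p = 0.150). Over the 6 toxin arrays its slope was 0.23 ± 0.04 per 24 h (adjusted p = 0.419). For Col15a1, the other multiplexin, the control array read 6.17, the 24 h array 6.14, the 36 h array 6.0, the 48 h arrays 6.09 and 6.24, and the 72 h arrays 6.10 and 6.49. Its 48 h and 72 h arrays lay on both sides of the control, and its 72 h difference was 0.13 ± 0.21.

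Col4a3, a chain of the specialised type IV network of kidney and lung, ran the other way. For Col4a3 the control array read 5.17, the 24 h array 4.39, the 36 h array 4.40, both 48 h arrays 4.69, and the 72 h arrays 4.70 and 4.87. All 6 toxin arrays lay below the control, with the largest gap, -0.78, at 24 h and the smallest, -0.30, on the second 72 h array. The difference was -0.49 ± 0.10 at 48 h (adjusted p = 0.159) and -0.39 ± 0.10 at 72 h (adjusted p = 0.213), and the slope over the toxin arrays was 0.21 ± 0.05 per 24 h (adjusted p = 0.449). Its mean signal was below the median of all genes, 5.16. For Col4a4, which joins Col4a3 in that network, the control array read 4.35, the 24 h array 4.31, the 36 h array 4.23 and the 4 later arrays 4.35, so it did not share the gap.

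Of the X-linked type IV chains, Col4a5 was nearly flat and Col4a6 was not. Col4a5 read 6.12 at 24 h and 6.13 on the other 6 arrays. For Col4a6 the control array read 5.28, the 24 h array 5.41, the 36 h array and both 48 h arrays 5.28, and the 72 h arrays 5.28 and 4.99, a range of 0.42. Such repeated values are frequent in this table: 7 of the 44 collagen genes had the same value on both 48 h arrays and 7 on both 72 h arrays, and 10 had 4 or fewer distinct values over the 7 arrays.

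In 5 of the 8 basement membrane genes (Col4a1, Col4a2, Col4a3, Col4a4 and Col18a1) both 72 h arrays lay above both 48 h arrays, which was the case for 0 of the 11 fibrillar genes, 7 of all 44 collagen genes (15.9%) and 16.7% of all genes. For Col4a4 the step was 0.005 on a dim probe set. Col4a1 and Col18a1 kept this order under each of the 3 other scalings tried, Col4a2 and Col4a3 under 2 of them and Col4a4 under 1. Those scalings were medians over all probe sets subtracted, array medians subtracted and repeated quantile normalisation. Under them 42.2%, 23.6% and 17.6% of all genes had this order, with 15, 9 and 7 of the 44 collagen genes. Of the 8 basement membrane genes 6, 3 and 3 had it, and of the 11 fibrillar genes 1, 1 and 0. The order by itself therefore does not set the 44 collagen genes apart, and the basement membrane class was not tested as a set. The slope over the toxin arrays had an unadjusted p under 0.05 for 5 collagen genes, against 8.7% of all genes. The 4 with an upward slope were Col18a1, Col4a3, Col4a1 (0.24 ± 0.07 per 24 h, adjusted p = 0.483) and Col4a2 (0.17 ± 0.07 per 24 h, adjusted p = 0.569), against 4.22% of all genes upward. The downward one was Col28a1, a beaded-filament-like collagen of nerve, at -0.16 ± 0.06 per 24 h (adjusted p = 0.569), against 4.47% of all genes downward. The count was 2 without the second 72 h array, 9 without the first, and 3 without the 24 h array or without either 48 h array. The slope of Col4a2 was 0.07 per 24 h without the second 72 h array and 0.26 without the first. For Col28a1 the control array read 4.33, the 24 h array 4.58, the 36 h array 4.33, the 48 h arrays 4.33 and 4.46, and the 72 h arrays 4.33 and 4.09, and its slope was -0.10 per 24 h without the 24 h array.

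**Figure D2:**
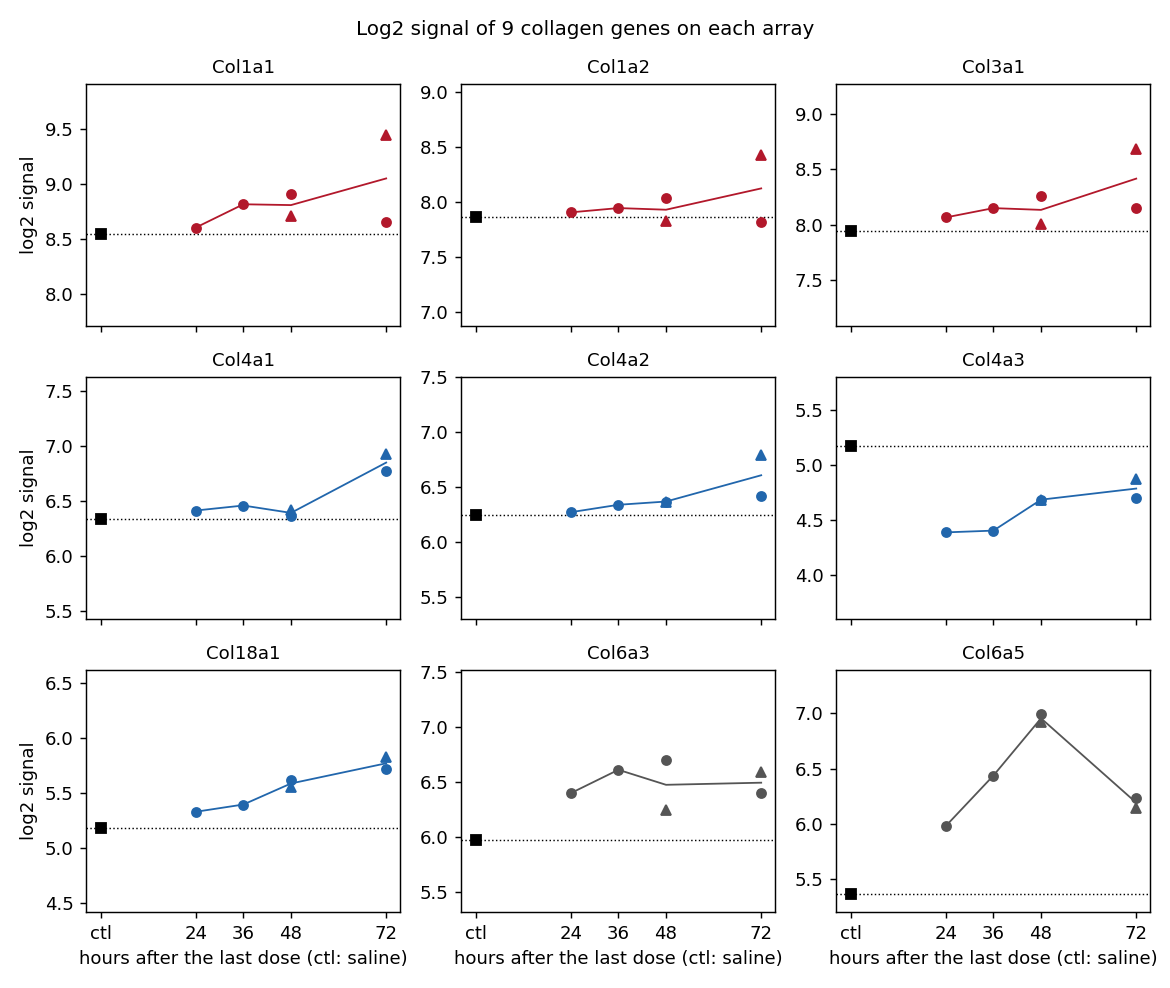
Log2 signal (vertical axis, the same span in each panel) against hours after the last dose for 9 collagen genes, with the saline control at the left as a black square and a dotted line. Circles are the lone array or the first of a pair, triangles the second of a pair, and the line joins the means of the toxin times. Col18a1 is higher at each later time, Col6a5 is highest at 48 h, Col4a1 is highest at 72 h, Col4a3 stays under its dotted line, and the 72 h pair is widest for Col1a1, Col1a2 and Col3a1.

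The fibrillar collagens of type I and type III, the main fibre proteins of the stomach wall, were near the control on most arrays and highest on the second 72 h array. For Col1a1 the control array read 8.54, the 24 h array 8.60, the 36 h array 8.81, the 48 h arrays 8.90 and 8.71, and the 72 h arrays 8.65 and 9.44. For Col1a2, the second type I chain, the control array read 7.87, the 24 h array 7.90, the 36 h array 7.94, the 48 h arrays 8.03 and 7.82, and the 72 h arrays 7.81 and 8.43. For Col3a1 the control array read 7.94, the 24 h array 8.06, the 36 h array 8.15, the 48 h arrays 8.26 and 8.01, and the 72 h arrays 8.15 and 8.68. In all 3 genes the first 72 h array lay within or below the 48 h values, and the second lay above it by 0.78 for Col1a1, 0.61 for Col1a2 and 0.54 for Col3a1. The 72 h differences from control were smaller than those gaps: 0.51 ± 0.40 for Col1a1 (adjusted p = 0.637), 0.26 ± 0.32 for Col1a2 (adjusted p = 0.795) and 0.47 ± 0.29 for Col3a1 (adjusted p = 0.533). At 48 h the differences were 0.27 ± 0.40 for Col1a1, 0.06 ± 0.32 for Col1a2 and 0.19 ± 0.29 for Col3a1.

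The second Col1a2 probe set, a dimmer one, did not show the step on the second 72 h array. It differed from the control by 0.00 on the first 72 h array and by 0.07 on the second, where the brighter probe set differed by -0.05 and 0.56. The level of Col1a2 on that array therefore depends on which probe set is read.

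Type V chains, which sit in the core of type I fibres and limit their width, were also highest on the second 72 h array, by less. For Col5a1 the control array read 6.78, the 24 h array 6.84, the 36 h array 6.85, the 48 h arrays 6.96 and 6.85, and the 72 h arrays 6.84 and 7.14. For Col5a2 the control array read 5.91, the 24 h array 5.96, the 36 h array 5.82, both 48 h arrays 5.96, and the 72 h arrays 5.74 and 6.25. For Col5a3 the control and 24 h arrays read 5.76, the 36 h array 5.75, the 48 h arrays 5.58 and 5.78, and the 72 h arrays 5.76 and 5.81. The 72 h difference from control was 0.21 ± 0.16 for Col5a1, 0.08 ± 0.26 for Col5a2 and 0.02 ± 0.11 for Col5a3, and none passed the test. The dimmer Col5a1 probe set lay above the control by 0.21 to 0.51 on the 6 toxin arrays and was not highest on the second 72 h array.

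Of the 44 collagen genes, 11 (25%) had their single highest value on the second 72 h array, against 13.2% of all genes. They were Col1a1, Col1a2, Col3a1, Col5a1, Col5a2 and Col5a3 among the 11 fibrillar genes, Col4a1, Col4a2, Col15a1 and Col18a1 among the 8 basement membrane genes, and Col16a1. The second 72 h array exceeded the first by at least 0.25 in 10 collagen genes (22.7%) and in 8.39% of all genes. Between these arrays the median of 12 fibroblast markers also differed, at -0.56 from the control on the first and -0.26 on the second, as did that of 10 smooth muscle markers, at -0.15 and 0.08. The part of cell makeup in the collagen values was not tested.

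The promoter windows of Col1a2 and Col3a1 are shown because both genes were highest on the second 72 h array while their windows are unlike. The Col1a2 window is chr6:4505368-4505667 on the plus strand (61.0% G and C) and the Col3a1 window chr1:45311288-45311587 on the plus strand (37.7% G and C), both from RefSeq (GRCm38.p6). Capitals mark CCAAT boxes, GC boxes and, in Col3a1, the TATA box letters TATAAA.
Col1a2: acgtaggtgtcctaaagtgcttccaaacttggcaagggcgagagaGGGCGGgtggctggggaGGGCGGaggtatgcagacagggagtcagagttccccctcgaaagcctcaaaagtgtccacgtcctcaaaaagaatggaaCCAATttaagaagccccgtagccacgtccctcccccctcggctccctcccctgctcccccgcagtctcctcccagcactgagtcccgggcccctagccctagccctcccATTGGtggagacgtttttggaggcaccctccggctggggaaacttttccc
Col3a1: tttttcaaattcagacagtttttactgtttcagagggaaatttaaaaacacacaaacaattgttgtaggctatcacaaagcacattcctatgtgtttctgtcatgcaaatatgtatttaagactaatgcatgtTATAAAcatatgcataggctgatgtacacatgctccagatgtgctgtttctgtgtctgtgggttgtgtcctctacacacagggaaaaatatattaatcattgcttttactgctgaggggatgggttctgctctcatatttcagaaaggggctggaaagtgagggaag
The Col1a2 window held 2 CCAAT boxes and 2 GC boxes and no TATAAA. The Col3a1 window held 1 TATAAA and neither of the other motifs.

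The remaining 5 fibrillar genes are the cartilage collagens Col2a1, Col11a1 and Col11a2 and the less studied Col24a1 and Col27a1. At 48 h and 72 h their mean differences from control ran from -0.11 for Col11a1 at 72 h to 0.36 for Col27a1 at 48 h. For Col27a1, named here after its values were seen, the control array read 6.53, the 24 h array 6.72, the 36 h array 6.73, the 48 h arrays 6.73 and 7.06, and both 72 h arrays 6.73, so 4 of its 6 toxin arrays held the same value.

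Among the other collagens, type VI, which forms beaded filaments around cells in nearly all connective tissue, stood out through Col6a5, a chain of restricted expression. For Col6a5 the control array read 5.36, the 24 h array 5.98, the 36 h array 6.44, the 48 h arrays 6.99 and 6.92, and the 72 h arrays 6.24 and 6.14. The values stood in the order of time to 48 h and were lower at 72 h, and no time points overlapped. The difference from control was 1.60 ± 0.07 at 48 h (3.03-fold, adjusted p = 0.120) and 0.83 ± 0.07 at 72 h (1.78-fold, adjusted p = 0.146), and that of 72 h against 48 h was -0.77 ± 0.06 (adjusted p = 0.705). The second array of each pair differed from the first by only -0.07 at 48 h and -0.09 at 72 h. Its range over the 7 arrays was the only one above 1 among the collagen genes (2.27%), against 6.10% of all genes. At 36 h it was 1.08 above the control, the only collagen gene at least 2-fold away, against 2.54% of all genes (0.933% higher and 1.61% lower). At 24 h that count was 0 of 44, against 2.88% of all genes (1.2% higher and 1.67% lower). The 36 h count was 0 with each array's median over all probe sets subtracted. Col6a5 is the collagen gene whose 48 h difference passed an adjusted p of 0.05 under some other settings, at 0.041 with each array's median subtracted.

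The promoter window of Col6a5, the collagen gene farthest from the control, is chr9:105960594-105960893 on the minus strand in RefSeq (GRCm38.p6), with 60.0% G and C and capitals on its 1 GC box.
Col6a5: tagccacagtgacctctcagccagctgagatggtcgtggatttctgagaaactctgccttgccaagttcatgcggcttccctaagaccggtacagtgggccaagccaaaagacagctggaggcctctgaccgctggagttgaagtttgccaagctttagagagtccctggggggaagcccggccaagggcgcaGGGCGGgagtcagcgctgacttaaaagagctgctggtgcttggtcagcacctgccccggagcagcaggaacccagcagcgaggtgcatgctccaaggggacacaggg
It held neither CCAAT nor TATAAA on either strand.

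The widely expressed type VI chains Col6a1, Col6a2 and Col6a3 also lay above the control on all 6 toxin arrays. For Col6a3 the control array read 5.98, the 24 h array 6.40, the 36 h array 6.61, the 48 h arrays 6.70 and 6.25, and the 72 h arrays 6.40 and 6.59. Its difference was 0.50 ± 0.24 at 48 h (adjusted p = 0.401) and 0.52 ± 0.24 at 72 h (adjusted p = 0.408), with a gap of 0.45 between the 48 h arrays. For Col6a2 the control array read 7.17, the 24 h array 7.31, the 36 h array 7.41, the 48 h arrays 7.54 and 7.35, and the 72 h arrays 7.39 and 7.43. For Col6a1 the control array read 8.03, the 24 h array 8.28, the 36 h array 8.25, the 48 h arrays 8.36 and 8.06, and the 72 h arrays 8.25 and 8.36. For both, the toxin arrays stayed within 0.37 of the control and the times overlapped. The dimmer Col6a1 probe set lay below the control on 3 of the 6 toxin arrays, down to -0.32 on the second 48 h array, so the direction of Col6a1 differs between its probe sets.

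The other type VI chains had no common direction. For Col6a4 the control array read 5.69, the 24 h array 5.66, the 36 h array 5.68, the 48 h arrays 5.59 and 5.89, and the 72 h arrays 5.27 and 5.59. For Col6a6 the control and 24 h arrays read 5.02, the 36 h array 4.93, the 48 h arrays 5.02 and 5.14, and both 72 h arrays 5.02. Col6a4, Col6a5 and Col6a6 all lie on chromosome 9, and of these Col6a5 alone differed from the control by more than 0.5 on any array.

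Of the 19 other collagens outside type VI, only Col14a1 lay on 1 side of the control by over 0.25 on every toxin array. The 9 fibril-associated collagens (FACIT), which decorate the surface of fibres, differed from the control in the mean by -0.51 to 0.36 at 48 h and by -0.49 to 0.29 at 72 h. The low end at both times was Col14a1, a FACIT of dense connective tissue. For Col14a1 the control array read 5.62, the 24 h array 5.0, the 36 h array 5.10, the 48 h arrays 4.98 and 5.24, and the 72 h arrays 4.98 and 5.29, all 6 toxin arrays lying below the control. Its differences, -0.51 ± 0.20 at 48 h (adjusted p = 0.322) and -0.49 ± 0.20 at 72 h (adjusted p = 0.360), did not pass the test, and it is named after its values were seen. Col12a1, a related FACIT also named afterwards, differed most within a pair, reading 6.51 and 5.63 on the 48 h arrays. On single arrays Col9a1 reached 0.63 above the control, and Col9a3 reached -0.48 at 36 h. The 4 transmembrane collagens ranged from -0.12 to 0.07 at 48 h and from -0.08 to 0.23 at 72 h. Col23a1 among them was the only collagen gene with both 48 h arrays on one side of the control and both 72 h arrays on the other, against 4.05% of all genes. The 3 short-chain network collagens ranged from -0.03 to 0.06 at 48 h and from -0.02 to 0.06 at 72 h. Col7a1, the anchoring fibril collagen of squamous epithelium, differed by 0.01 at 48 h and 0.00 at 72 h. Col26a1 and Col28a1, placed in none of these subclasses, differed by 0.06 and 0.07 at 48 h and both by -0.12 at 72 h.

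Over the 44 genes, an unadjusted p under 0.05 was found for 3 at 48 h against control, against 19.7% of all genes, and for 4 at 72 h against control, against 17.9% of all genes. At 48 h the higher ones were Col6a5 and Col18a1 (8.16% of all genes higher) and the lower one Col4a3 (11.6% of all genes lower). At 72 h Col4a1 joined the higher side (7.93% of all genes higher, 10% lower). Both comparisons use the same control array, and their overlap is no second observation. For 72 h against 48 h there were 2, Col4a1 higher and Col6a5 lower, against 7.07% of all genes (4.27% higher and 2.8% lower). The 48 h count was 8 without the first 48 h array and 5 without either 72 h array. The 72 h count was 9 without either 72 h array and 7 without either 48 h array. The count for 72 h against 48 h was 7 without the first array of either pair and 4 without the second 72 h array.

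**Figure D3:**
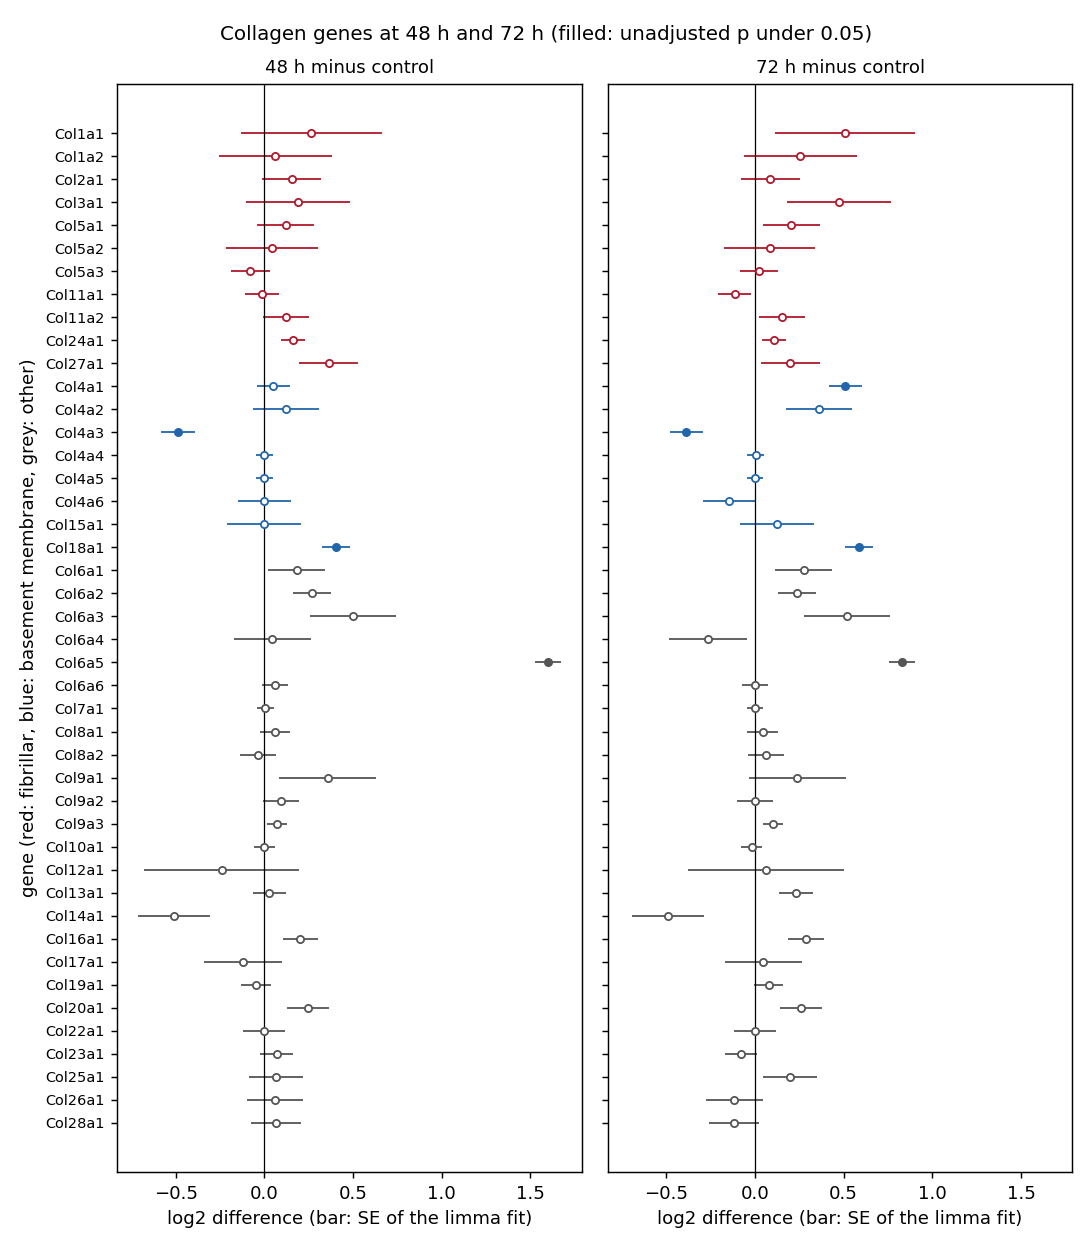
The log2 difference from the control array (horizontal axis) is shown for each of the 44 collagen genes, at 48 h on the left and 72 h on the right, with bars for the SE of the limma fit. Filled points had an unadjusted p under 0.05: Col6a5, Col18a1 and Col4a3 in both panels, and Col4a1 at 72 h.

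The class medians lay near the control, and several changed sign with medians over all probe sets subtracted, a scaling chosen after seeing the data. With array medians subtracted instead, the fibrillar median lay above the control on every toxin array, at 0.035 to 0.21. The basement membrane median was then -0.003 on the first 72 h array, and that of the other collagens -0.002 at 24 h. After repeated quantile normalisation the median of all collagen genes was 0.085 at 48 h and 0.088 at 72 h. In the order of the 4 times, the median of the 44 differences from control was 0.040, 0.00, 0.062 and 0.085, while that of all genes was 0.00 throughout. The fibrillar median was 0.06, 0.07, 0.12 and 0.15 at the same 4 times, and the basement membrane median 0.01, 0.00, 0.00 and 0.07. With each array's median over all probe sets subtracted, all genes shifted by -0.08, -0.10, -0.12 and -0.05, and the collagen medians became -0.036, -0.098, -0.057 and 0.033, the fibrillar medians -0.020, -0.031, 0.0011 and 0.10, and the basement membrane medians -0.069, -0.098, -0.12 and 0.014.

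All 6 toxin arrays lay above the control in 14 collagen genes (31.8%), against 20.2% of all genes, and below it in 2, Col4a3 and Col14a1 (4.55%), against 22.6%. Both 48 h arrays lay above the control in 20 collagen genes (45.5%), against 31.9% of all genes, and below it in 2, against 34.4%. Both 72 h arrays lay above it in 22 (50%), against 34.2% of all genes, and below it in 5 (11.4%), against 33.9%. The 14 above the control on every toxin array were Col1a1, Col3a1, Col5a1, Col24a1, Col27a1, Col4a1, Col4a2, Col18a1, Col6a1, Col6a2, Col6a3, Col6a5, Col9a1 and Col20a1. With the medians over all probe sets subtracted the count above was 7, against 12.2% of all genes: Col6a2, Col6a3, Col6a5, Col18a1, Col20a1, Col24a1 and Col27a1. Under that scaling the count below was 9, against 35.8% of all genes. Col9a1, a dim cartilage FACIT, read 4.04 on the control array and 4.12 to 4.67 on the toxin arrays.

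Genes that fold and modify collagen lay mostly below the control. Of 19 measured folding and modification genes, 4 were higher and 14 lower than the control at 48 h, with 1 higher and 7 lower at an unadjusted p under 0.05 (8.16% and 11.6% of all genes) and none at an adjusted one, and the median was -0.35 under the deposited scaling and -0.31 to -0.47 under the others. At 72 h 7 were higher and 12 lower, 1 and 3 at an unadjusted p under 0.05 (7.93% and 10% of all genes). P4ha2, a prolyl hydroxylase that stabilises the helix, differed by -1.12 ± 0.27 at 48 h and -0.50 ± 0.27 at 72 h, and P3h2, a prolyl hydroxylase acting on type IV chains, by -0.55 ± 0.11 and -0.39 ± 0.11. Colgalt2, which adds sugar to collagen lysines, differed by -0.53 ± 0.05 and -0.31 ± 0.05, and Ctage5, needed for export of large cargo from the endoplasmic reticulum, by -0.54 ± 0.06 and -0.56 ± 0.06. Serpinh1, the collagen-specific chaperone HSP47, lay on the other side at 0.27 ± 0.16 and 0.38 ± 0.16. The smallest adjusted p of these 5 was 0.120, for Colgalt2 at 48 h.

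Of 13 measured processing and cross-linking genes, 6 were higher and 7 lower than the control at 48 h, with a median of -0.038, and 0 had an unadjusted p under 0.05 either way (8.16% and 11.6% of all genes). At 72 h 5 were higher and 8 lower, with a median of -0.16, and 1 of the lower ones had an unadjusted p under 0.05, against 10% of all genes. For Lox, the lysyl oxidase that starts cross-links, the control array read 6.69, the 24 h array 5.99, the 36 h array 5.45, the 48 h arrays 6.22 and 5.62, and the 72 h arrays 5.84 and 6.06. Its difference was -0.76 ± 0.32 at 48 h (adjusted p = 0.338) and -0.74 ± 0.32 at 72 h (adjusted p = 0.373), and all 6 toxin arrays lay below the control. The related oxidases Loxl1 and Loxl3 differed by -0.52 ± 0.17 and -0.18 ± 0.06 at 48 h, and Pcolce2, an enhancer of propeptide removal, by -0.16 ± 0.09.

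Of 11 measured collagen receptors, 5 were higher and 6 lower at 48 h and 4 higher and 6 lower at 72 h, with a median of -0.027 and -0.025. None had an unadjusted p under 0.05 at either time, against 19.7% of all genes at 48 h and 17.9% at 72 h. Cd44 differed by 0.74 ± 0.43 at 48 h, and the integrin chain Itga2 by 0.69 ± 0.36. The receptor kinases Ddr1 and Ddr2 differed by -0.21 ± 0.26 and -0.56 ± 0.32, and Mrc1, a macrophage receptor that takes up collagen, by -0.38 ± 0.15. Each of these errors reflects pairs that differ by a large part of the difference itself.

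The list of collagen breakdown genes also holds the inhibitors Timp1, Timp2, Timp3 and Timp4, so its counts mix both roles. Of its 20 measured genes, 8 were higher and 11 lower at 48 h, and 12 were higher and 7 lower at 72 h. At each time 2 of the higher and 4 of the lower ones had an unadjusted p under 0.05, against 8.16% and 11.6% of all genes at 48 h and 7.93% and 10% at 72 h. The inhibitor Timp2 differed by -0.68 ± 0.08 at 48 h and -0.75 ± 0.08 at 72 h, and the gelatinase Mmp2 by -0.70 ± 0.17 at both times. The metalloprotease Mmp19 differed by -0.40 ± 0.08 and -0.33 ± 0.08. Timp1, another inhibitor, lay on the other side at 0.40 ± 0.07 and 0.35 ± 0.07, with its highest value, 4.46, on the 24 h array against 3.47 on the control array.

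The 20 other measured basement membrane genes held 7 higher and 13 lower at 48 h and 10 higher and 8 lower at 72 h, 2 each way at an unadjusted p under 0.05 at both times. The shares of all genes were 8.16% higher and 11.6% lower at 48 h and 7.93% and 10% at 72 h. The laminin chains Lama5, of epithelial basement membrane, and Lamc1, common to most laminins, differed by 0.36 ± 0.06 and 0.23 ± 0.06 at 48 h and by 0.33 ± 0.06 and 0.28 ± 0.06 at 72 h. Lama4, a laminin chain of vessels, differed by -0.67 ± 0.17 and -0.93 ± 0.17, and Smoc2 by -0.21 ± 0.05 at both times. Sparc, a collagen-binding protein, was level with the control, at -0.01 ± 0.21 and -0.05 ± 0.21.

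Genes that sit on fibrils and elastic fibres lay mostly below the control. Of 23 measured, 6 were higher and 17 lower at 48 h (0 and 7 at an unadjusted p under 0.05) and 9 were higher and 14 lower at 72 h (0 and 8). The shares of all genes past that p were 8.16% higher and 11.6% lower at 48 h, and 7.93% and 10% at 72 h. Fbln5, needed for elastic fibre assembly, differed by -0.86 ± 0.07 at 48 h and -0.79 ± 0.07 at 72 h, and Aspn, a small leucine-rich proteoglycan, by -0.87 ± 0.07 and -0.54 ± 0.07. Fbln1 and Mfap5 differed by -0.62 ± 0.10 and -0.61 ± 0.12 at 48 h. For Dcn, the proteoglycan decorin, the control array read 10.44, the 24 h array 10.27, the 36 h array 9.73, the 48 h arrays 10.07 and 9.67, and the 72 h arrays 9.50 and 9.65. All 6 toxin arrays lay below the control for decorin, and above it for Col1a1 and Col3a1 under the deposited scaling. The reason was not tested.

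The profibrotic signalling list also holds Skil and Smad7, inhibitors of TGF-beta signalling, so its counts mix both roles. Of its 16 measured genes, 2 were higher and 14 lower at 48 h. At an unadjusted p under 0.05 in limma these were 0 and 5 (8.16% and 11.6% of all genes). At 72 h 4 were higher and 11 lower, 0 and 4 past that p (7.93% and 10% of all genes). Tgfb2 and Tgfb3 differed by -0.36 ± 0.05 and -0.27 ± 0.05 at 48 h, and the platelet-derived growth factor chains Pdgfa and Pdgfb by -0.39 ± 0.08 and -0.33 ± 0.09. Tgfb1, a strong inducer of fibrillar collagen genes, differed by 0.29 ± 0.20 at 48 h and 0.17 ± 0.20 at 72 h. None passed the adjusted threshold.

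Most marker genes of fibroblasts and endothelium, 2 cell types that make collagen, lay below the control. The fibroblast list shares Dcn, Lum, Fbln1 and Mfap5 with the list of fibril-associated genes, and Pdgfra with the profibrotic list. Pdgfrb is in both the profibrotic and the pericyte list. The counts of these lists are therefore not independent. Of 12 measured fibroblast markers, 1 was higher and 11 lower at 48 h and 2 were higher and 10 lower at 72 h, with a median of -0.49 at 48 h and -0.47 at 72 h. Of all 22180 genes, 10756 were lower at 48 h and 10489 at 72 h. At an unadjusted p under 0.05 in limma, 0 fibroblast markers were higher, and 3 were lower at 48 h and 4 at 72 h. The shares of all genes past that p were 8.16% higher and 11.6% lower at 48 h, and 7.93% and 10% at 72 h. Pdgfra differed by -0.47 ± 0.19 at 48 h and -0.48 ± 0.19 at 72 h, Dpt by -0.79 ± 0.19 and -0.62 ± 0.19, and Pi16 by -0.40 ± 0.21 and -0.11 ± 0.21. Of 14 endothelial markers, 3 were higher and 11 lower at both times, with a median of -0.58 at 48 h and -0.50 at 72 h. Past the same unadjusted p, 0 were higher, and 10 were lower at 48 h and 8 at 72 h. No marker of either list passed the adjusted threshold. Pecam1 differed by -0.64 ± 0.10 and -0.73 ± 0.10, Cdh5 by -0.80 ± 0.08 and -0.84 ± 0.08, and Kdr, the main VEGF receptor, by -1.53 ± 0.26 and -1.31 ± 0.26. Endothelial cells are among the sources of Col4a1, Col4a2 and Col18a1. The part of endothelial cells in the 72 h values of these genes was not tested.

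The medians of smooth muscle and pericyte markers were closer to the control than those of fibroblast and endothelial markers. The 10 smooth muscle markers had a median of -0.15 at 48 h and -0.04 at 72 h. Of these, 2 were higher and 7 lower at 48 h, and 3 were higher and 7 lower at 72 h. At an unadjusted p under 0.05 in limma there were 0 either way at both times. At those times Acta2 differed by -0.21 ± 0.12 and -0.20 ± 0.12, Myh11 by 0.21 ± 0.13 and 0.10 ± 0.13, and Des by -0.34 ± 0.14 and 0.03 ± 0.14. The 8 pericyte markers had a median of -0.31 at 48 h and -0.25 at 72 h, with 2 higher and 6 lower at both times. At an unadjusted p under 0.05 in limma, 1 was higher and 2 lower at 48 h, and 0 and 2 at 72 h. The shares of all genes past that p were 8.16% higher and 11.6% lower at 48 h, and 7.93% and 10% at 72 h. At those times Rgs5 differed by -0.79 ± 0.19 and -1.04 ± 0.19, Pdgfrb by -0.61 ± 0.29 and -0.66 ± 0.29, and Cspg4 by -0.09 ± 0.11 and -0.13 ± 0.11. The part of any of these cell types in the collagen differences was not tested.

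**Figure D4:**
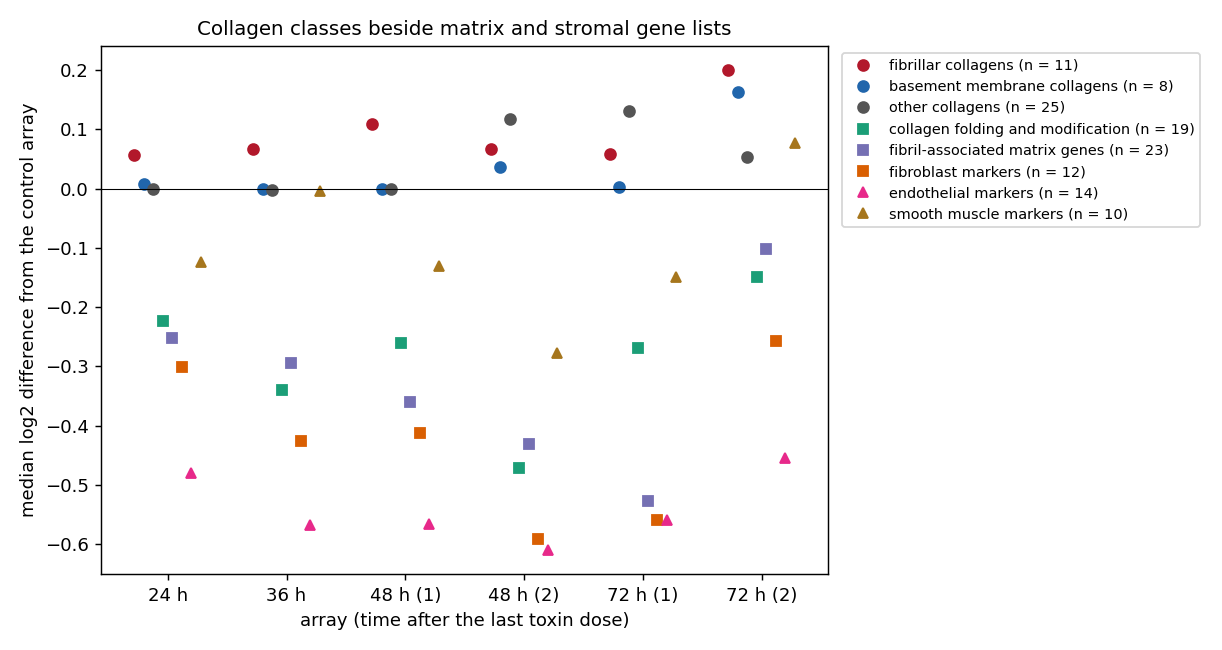
The median log2 difference from the control array (vertical axis) is shown for each toxin array, with circles for the collagen classes, squares for collagen folding genes, fibril-associated matrix genes and fibroblast markers, and triangles for endothelial and smooth muscle markers. The fibril-associated and fibroblast lists share Dcn, Lum, Fbln1 and Mfap5. Under the deposited scaling shown, the collagen classes lie at or just above 0 on every array, between -0.00 and 0.20, while with medians over all probe sets subtracted most of them lie below 0, down to -0.10, and the folding, fibril-associated, fibroblast and endothelial lists lie below 0 on every array.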

How the data were processed

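Values for 41345 probe sets on 7 single-channel Affymetrix arrays were deposited as log2 signal, which the authors made with RMA in Partek, per the submitters' processing notes, without versions. Arrays have no depth in reads, and precision is limited by their number. The platform annotation gave 23521 probe sets 1 gene, 1814 several and 16010 none; the brightest single-gene probe set was kept per gene (22180 genes), and all 44 collagen symbols matched the GRCm38.p6 gene table. A probe set naming Col6a1 together with other genes was left out. The build behind the array is not given in the sources used here, so promoter coordinates are those of RefSeq.

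All genes were fitted in limma 3.58.1 (R 4.3.3, lmFit and eBayes, two-sided, Benjamini-Hochberg over all genes) with 1 mean per group and 2 residual degrees of freedom, and a slope over the 6 toxin arrays with 4; both were tested on simulated data. At 24 h and 36 h there is 1 array and no test. Replicate numbers are shared by label only: second minus first array at 48 h and at 72 h correlated at -0.13 across genes, and no pairing was used. Named genes are all members of types I, III, IV, V, VI, XV and XVIII, members with an unadjusted p under 0.05 or 2-fold at 24 h or 36 h, up to 4 genes by p per pathway list with 7 fixed ones, and the first 3 markers of each stromal list. Members, lists and rules were chosen with earlier results of these data known.

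Alternatives were other scalings, the mean of probe sets, dim genes left out, eBayes with trend and robust settings, each array left out, a replicate block and, chosen after seeing the data, genes with at least 6 distinct values and medians over all probe sets.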

Additional observations from a re-analysis of the deposited data

Results flagged for a closer look

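Col23a1, a transmembrane collagen, was picked out because its 48 h and 72 h arrays lay on opposite sides of the control, which was the case for 4.05% of all genes. The control array read 5.93, the 24 h array 5.87, the 36 h array 5.67, the 48 h arrays 5.94 and 6.07, and the 72 h arrays 5.91 and 5.80. The difference from control was 0.07 at 48 h and -0.079 at 72 h, and that of 72 h against 48 h, tested in limma, was -0.15 ± 0.08 (adjusted p = 0.757). The array at 36 h lay below both 72 h arrays.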

How the results depend on the processing

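The 14 results of single collagen genes with an unadjusted p under 0.05 in the main limma fits were recomputed, giving 161 values. Of these values, 0 reversed and 158 kept direction and side of the adjusted threshold. The 14 were picked for a small p in these same data, so few reversals could arise. Nothing follows from this count for the other results. The exceptions were Col6a5 at 48 h, with an adjusted p of 0.041 with array medians subtracted, 0.033 with medians over all probe sets and 0.025 where genes had at least 6 distinct values, in a range of 0.025 to 0.240 over all settings. Genes called at 48 h numbered 12 after repeated quantile normalisation, 77 with array medians, 167 with medians over all probe sets and 143 of 14286 with at least 6 distinct values. At 72 h these were 6, 13, 30 and 52. Collagen genes at an unadjusted p under 0.05 numbered 6 at 48 h and 7 at 72 h after quantile normalisation, 4 for 72 h against 48 h with medians over all probe sets, and 3 for the slope with dim genes left out. Leaving out each array gave 4 to 8 at 48 h, 7 to 9 at 72 h, 3 to 7 for 72 h against 48 h and 2 to 9 for the slope. The collagen median with medians over all probe sets was -0.036 at 24 h, -0.098 at 36 h, -0.057 at 48 h, 0.033 at 72 h and 0.087 for 72 h against 48 h, and the count at least 2-fold away at 36 h was 0. The 72 h median was 0.20 with dim genes left out and 0.20 with at least 6 distinct values, which gave 0.089 for 72 h against 48 h, and 0.057 to 0.085 with an array left out. With the replicate block, 72 h against 48 h held 0 called genes and 3 collagen genes at an unadjusted p under 0.05, and Col4a1 and Col6a5 were 0.46 and -0.77 with an adjusted p of 0.800. The cause of these shifts was not tested.

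A single control array, pairs at 2 times and single arrays at 24 h and 36 h leave few degrees of freedom. The 17 collagen genes below the median brightness ranged over a median of 0.25 across the arrays, against 0.48 for the brighter 27.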

Other observations

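The collagens varied over the arrays about as much as other genes. The median range over the 7 arrays was 0.41 for the 44 collagen genes and 0.40 for all genes, and 17 collagen genes (38.6%) had a range of at least 0.5, against 35.0% of all genes. The 6 mesothelial markers include Krt19, also a keratin of epithelium, so their values cannot be assigned to the outer lining of the stomach alone. Their median lay above the control on every toxin array, at 0.23 to 0.58. All 6 lay above it at 24 h and 5 of the 6 on each other toxin array. Of all 22180 genes, 9673 to 10172 lay above the control on a toxin array. The median of 10 parietal cell markers, from the cells that carry the toxin receptor, lay below the control, at -1.37 at 24 h and -0.37 at 72 h. At 24 h all 10 lay below it, and at 72 h 8 lay below and 2 above. For Atp4b itself the control array read 12.94, the 24 h array 10.68, the 36 h array 12.33, the 48 h arrays 11.66 and 12.39, and the 72 h arrays 12.65 and 12.92.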
